A study of Homo sapiens with 12 samples.

Results

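The genes described here are 9 genes of the MHC class I pathway: the class I heavy chains HLA-B, HLA-C, HLA-E and HLA-F, the light chain B2M, the peptide loading genes TAP1, TAP2 and TAPBP, and the transactivator NLRC5. They were chosen by symbol from a table of 20030 genes, and each of the 9 symbols had 1 row. The libraries were made from the mRNA of THP-1 and MOLM-13, both established human lines of acute monocytic leukemia with a rearranged MLL gene. MOLM-13 cells carry a FLT3/ITD mutation and THP-1 cells have wild-type FLT3. Each line gave 3 control libraries, from cells given the solvent DMSO, and 3 JOA libraries. JOA is Jiyuan oridonin A, an ent-kaurene diterpenoid obtained from Isodon plants. The dose was 0.5 μM for MOLM-13 and 2 μM for THP-1, both for 48 h by the sample records and the methods, while the study's figure legends give a longer time. Line and dose thus changed together, and their parts in a difference between the lines cannot be told apart. All cells were grown in RPMI-1640 medium with fetal bovine serum. The sample records number the 3 libraries of a group but do not say that they are separate cultures, so the p-values given here measure the spread between these libraries.

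MHC class I molecules show fragments of the proteins made inside a cell to CD8 T cells. A polymorphic heavy chain pairs with the light chain beta-2-microglobulin in the endoplasmic reticulum. The transporter formed by TAP1 and TAP2 brings peptides from the cytosol, many of them cut by the immunoproteasome, and tapasin, the product of TAPBP, holds the empty class I molecule next to that transporter until a peptide fits. Natural killer cells read class I through inhibitory receptors, and HLA-E presents peptides from the leader sequences of other class I chains to the receptor NKG2A. Transcription of the heavy chains, B2M, TAP1 and immunoproteasome genes is raised by interferon gamma, and NLRC5 works with the RFX, CREB and NF-Y factors bound at class I promoters. In leukemia, low class I on the blasts is a known route of escape from T cells.

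In GENCODE release 29 on the human build GRCh38, 7 of the 9 genes lie in the MHC on chromosome 6. HLA-B (chr6:31269491-31357188, minus strand) is annotated with a span that runs over HLA-C (chr6:31268749-31272130, minus strand). HLA-E (chr6:30489467-30494205, plus strand) and TAPBP (chr6:33299694-33314387, minus strand) overlap no annotated gene, and HLA-F (chr6:29722775-29738528, plus strand) overlaps 3 genes on the opposite strand. TAP1 (chr6:32845209-32853978, minus strand) and TAP2 (chr6:32821833-32838780, minus strand) are close neighbours. TAP1 overlaps 2 genes on the opposite strand, PSMB8-AS1 and the immunoproteasome gene PSMB9. B2M is at chr15:44711487-44718877 and NLRC5 at chr16:56989485-57083531, both on the plus strand. The coding sequences of HLA-B and HLA-C were 92.5% identical in the reference, and the other pairs of heavy chains were 84.3% to 87.0% identical. Of the reference transcripts, 0 of the 940 windows of 150 bases in the HLA-B transcript and 0 of the 1405 in the HLA-C transcript occurred in a transcript of another gene. For TAP2 the share was 34.5%, all with 1 overlapping gene on the same strand, so its reads could have been split between both. The alleles of MOLM-13 and THP-1 may differ from the reference, and how the counting step treated reads that fit more than 1 HLA gene is not given in the sources used here.

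The RefSeq promoter table for GRCh38.p14 held 7 of the 9 genes, all but HLA-E and NLRC5. The 250 bases before the start site are printed for the 3 heavy chains it held and for TAP1, whose mRNA was lower with JOA in all 3 THP-1 pairs, and for TAPBP, whose mRNA was higher in all 3. The windows of B2M and TAP2, which were also lower in all 3 THP-1 pairs, are not printed. The windows are chr6:31357180-31357429 for HLA-B, chr6:31272093-31272342 for HLA-C, chr6:29723184-29723433 for HLA-F, chr6:32853705-32853954 for TAP1 and chr6:33314079-33314328 for TAPBP. For TAP1, which has a second start site in the table, the upstream one is shown. Each is written 5′ to 3′ on the strand of its gene, and capitals mark the matched motifs.
HLA-B: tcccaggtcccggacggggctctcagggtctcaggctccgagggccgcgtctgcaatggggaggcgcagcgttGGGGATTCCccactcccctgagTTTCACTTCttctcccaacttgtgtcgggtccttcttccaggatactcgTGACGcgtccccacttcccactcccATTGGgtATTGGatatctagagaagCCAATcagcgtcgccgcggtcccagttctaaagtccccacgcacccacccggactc
HLA-C: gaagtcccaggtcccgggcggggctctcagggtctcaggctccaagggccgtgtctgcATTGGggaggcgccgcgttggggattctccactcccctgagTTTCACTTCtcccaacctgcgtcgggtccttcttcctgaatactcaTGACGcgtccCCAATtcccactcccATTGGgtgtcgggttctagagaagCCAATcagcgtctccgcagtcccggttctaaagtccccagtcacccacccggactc
HLA-F: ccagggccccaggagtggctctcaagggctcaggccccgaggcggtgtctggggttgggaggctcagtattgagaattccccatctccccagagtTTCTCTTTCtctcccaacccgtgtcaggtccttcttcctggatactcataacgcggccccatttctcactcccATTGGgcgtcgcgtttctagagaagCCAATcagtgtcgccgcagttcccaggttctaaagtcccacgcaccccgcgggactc
TAP1: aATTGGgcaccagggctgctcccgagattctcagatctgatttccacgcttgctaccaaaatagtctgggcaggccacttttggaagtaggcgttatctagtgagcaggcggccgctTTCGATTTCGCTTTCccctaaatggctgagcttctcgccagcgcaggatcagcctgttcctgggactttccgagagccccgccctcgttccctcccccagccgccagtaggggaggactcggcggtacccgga
TAPBP: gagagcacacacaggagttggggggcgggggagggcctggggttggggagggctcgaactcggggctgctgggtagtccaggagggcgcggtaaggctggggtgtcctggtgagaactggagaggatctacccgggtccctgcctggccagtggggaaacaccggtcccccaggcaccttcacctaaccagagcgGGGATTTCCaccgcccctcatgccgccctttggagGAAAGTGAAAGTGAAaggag

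The motifs were searched on both strands of 34943 RefSeq windows of the same length. They were GAAANNGAA, the core of the interferon-stimulated response element (6.87% of windows), GAANNGAAA, the same core with other spacing (6.56%), TTCNNNGAA, the gamma-activated sequence (6.56%), CCAAT, the Y box bound by NF-Y (32.0%), TGACG, the CREB type core of the X2 box (21.2%), and GGGNNTTCC, an NF-kB type site (5.77%). The second spacing was added after the windows had been seen. HLA-B and HLA-C matched the core only in that spacing, so a count that includes it is not a fair contrast with all windows. The response element core was found in at least 1 spacing in a window of each of the 7 genes, and in 12.4% of all windows. In the window of the second TAP1 start site there was no such core, and TTCNNNGAA matched there. It was the GAANNGAAA form in HLA-B and HLA-C, the GAAANNGAA form in HLA-F, B2M, TAP1 and TAPBP, and both in TAP2. HLA-B held the NF-kB type site, the core, TGACG and 3 CCAAT boxes. HLA-C held TGACG and 4 CCAAT boxes but no match to the NF-kB type letters. TAPBP held a pair of overlapping response element cores 6 to 20 bases before its start and the NF-kB type site, and no CCAAT or TGACG. These are matches of letters in the reference and were not tested as binding sites.

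B2M was the most abundant of the 9 mRNAs in every group, and HLA-F the least. Levels are given as FPKM, fragments scaled to transcript length and to the mapped fragments of the library, which allows genes to be set beside each other. In MOLM-13 control cells the means ran in the order B2M (455 ± 18.3 FPKM, SD, n = 3), HLA-C (109 ± 4.87), HLA-B (82.1 ± 3.53), HLA-E (61.6 ± 7.42), TAPBP (40.7 ± 2.46), TAP1 (11.5 ± 0.529), TAP2 (6.96 ± 0.343), NLRC5 (4.19 ± 0.355) and HLA-F (0.0161 ± 0.0129). No neighbours in this order overlapped between their 3 libraries. In THP-1 control cells the order was B2M (929 ± 95.5 FPKM, SD, n = 3), HLA-B (222 ± 29.1), HLA-C (71.1 ± 10.1), TAPBP (53.9 ± 4.89), HLA-E (30.5 ± 2.32), TAP2 (20.5 ± 1.66), TAP1 (14.4 ± 2.38), NLRC5 (3.86 ± 0.368) and HLA-F (0.437 ± 0.122), again with no overlap between neighbours. HLA-B and HLA-C, and TAP1 and TAP2, thus changed places between the lines. In THP-1 JOA cells TAPBP (60.4 ± 2.43 FPKM) came before HLA-C (58.0 ± 11.5), and their libraries overlapped. B2M ranked 100 of 20030 genes by mean FPKM in MOLM-13 control cells and 40 in THP-1 control cells, whereas HLA-F ranked 13216 and 11201.

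**Figure D1:**
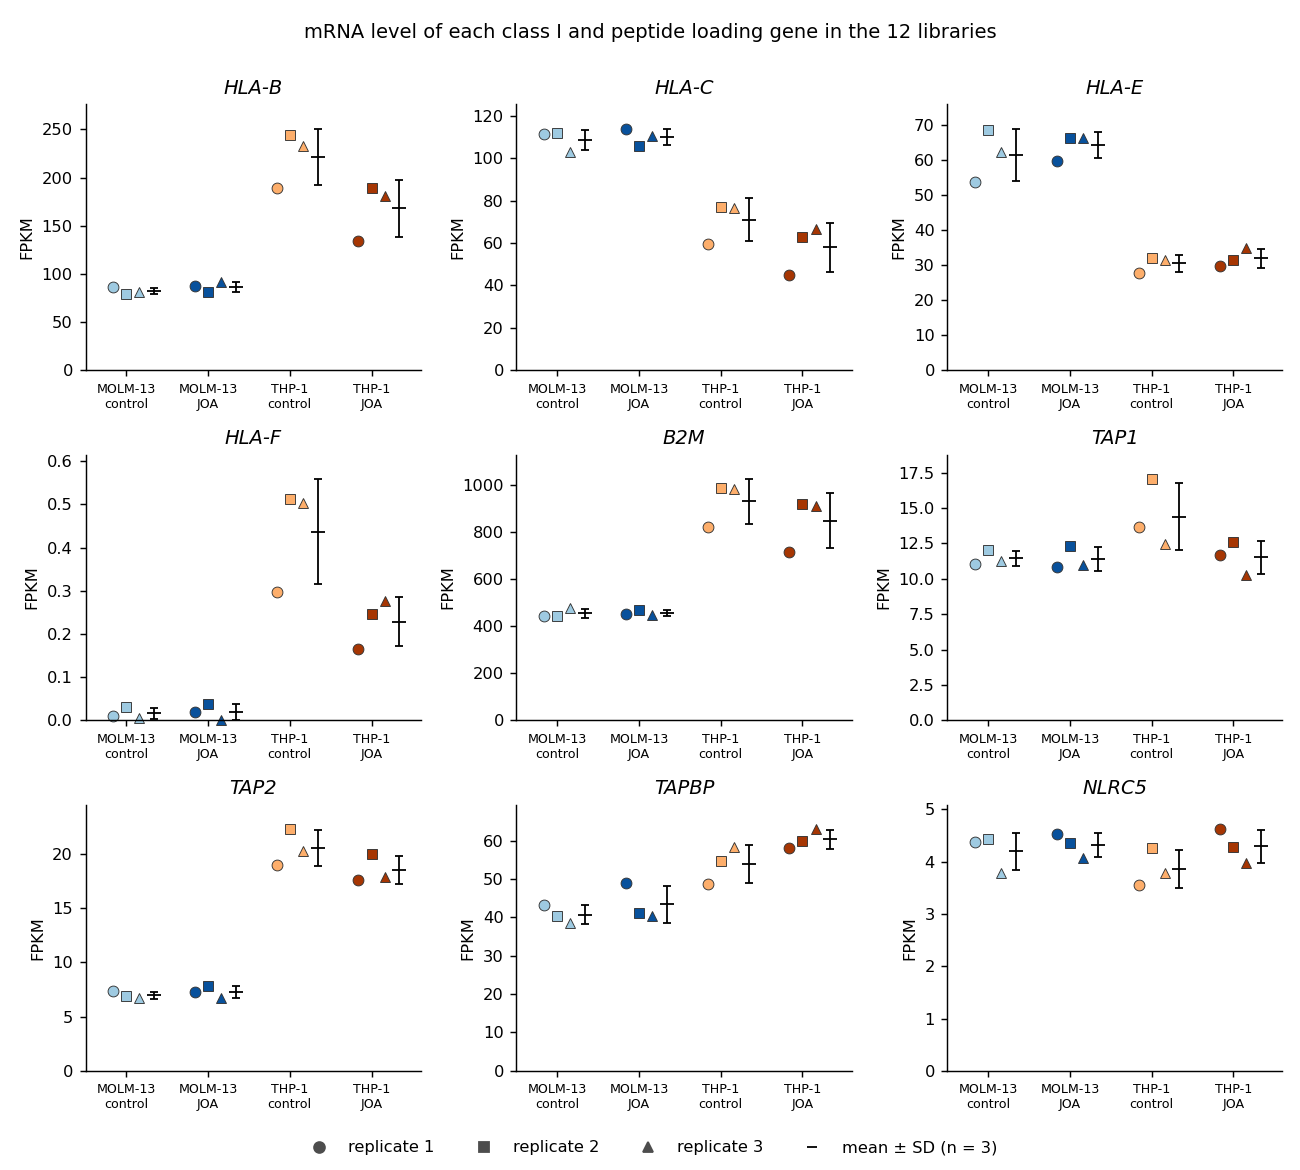
FPKM (y axis, from 0, its own scale in each panel) of the 9 genes in the 4 groups (x axis), with 1 point per library shaped by replicate number and the mean ± SD of 3 libraries beside the points. MOLM-13 control and JOA points overlap in every panel, and in THP-1 cells the JOA points of HLA-F lie below all control points.

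The labelled myeloid lines were checked against marker genes. Of 9 monocytic and myeloid markers, 8 had a mean of at least 1 FPKM in each group, led by LYZ, and CD14 was the exception. HBB, of erythroid cells, was at 0 in all 12 libraries, the 3 B cell markers summed to at most 1.079 FPKM, the 2 megakaryocyte markers to at most 0.268 FPKM, and the 3 T cell markers to at most 0.0257 FPKM in THP-1 cells. In MOLM-13 cells CD3D had a mean of 2.83 FPKM in control and 2.13 with JOA. Of 3 stromal or epithelial markers KRT18 was the highest, with means of 7.72 and 6.88 FPKM in MOLM-13 cells and 1.53 and 0.447 FPKM in THP-1 cells, in control and JOA. The summed level of that list overlapped between control and JOA in both lines, and its part in the results was not tested. Total depth cannot be read from FPKM values. Relative depth, estimated from the steps between low values, was 0.896 to 0.916 of the first control library in MOLM-13 cells and 0.932 to 1.07 in THP-1 cells.

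The first comparison asked what JOA did to these mRNAs in MOLM-13 cells. There, no heavy chain, light chain or loading gene moved beyond the spread between libraries. Of the 8 genes that passed the filter of a mean FPKM of at least 0.1, 0 were called by limma, where a call needed a Benjamini-Hochberg adjusted p below 0.05 together with a log2 fold change of 0.58 or more in size, and 0 had an unadjusted p under 0.05. Among all 11693 genes tested, 0% were called and 4.11%, or 481, had an unadjusted p under 0.05. The study, with DESeq at the same thresholds, reported changed genes in these cells. JOA libraries lay all below the control libraries for 0 of the 8 genes (4.55% of all genes) and all above for 0 (5.1%). The median log2 fold change of the 8 genes was 0.05, beside 0.01 for all genes.

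HLA-B, a main presenter of peptides to CD8 T cells, was at 86.1, 79.5 and 80.6 FPKM in the MOLM-13 control libraries and at 86.8, 81.4 and 91.1 FPKM with JOA. The groups overlapped, although each JOA library was above the control of its number, by 1.01, 1.02 and 1.13 times, a pattern not counted over all genes. The log2 fold change was 0.07 (SE 0.07, limma adjusted p = 1.00). HLA-C, which also binds killer cell receptors of the KIR family, was at 111, 112 and 103 FPKM in control and at 114, 106 and 111 FPKM with JOA. Its groups overlapped, with a log2 fold change of 0.02 (SE 0.06). HLA-E was at 53.8, 68.6 and 62.3 FPKM in control and at 59.9, 66.4 and 66.3 FPKM with JOA, again with overlap.

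B2M was at 445, 444 and 476 FPKM in the MOLM-13 control libraries and at 451, 469 and 446 FPKM with JOA. The groups overlapped, and the log2 fold change was 0.00 (SE 0.07). TAP1 was at 11.04, 12.1 and 11.3 FPKM in control and at 10.8, 12.3 and 10.998 FPKM with JOA. TAP2 was at 7.34, 6.86 and 6.67 FPKM in control and at 7.26, 7.84 and 6.71 FPKM with JOA. Both subunits of the transporter overlapped between the groups. TAPBP had the largest log2 fold change of the 8 genes in these cells, 0.09 (SE 0.09), with 43.3, 40.4 and 38.4 FPKM in control and 48.9, 41.0 and 40.3 FPKM with JOA. NLRC5 was at 4.37, 4.43 and 3.79 FPKM in control and at 4.53, 4.36 and 4.07 FPKM with JOA. Its groups overlapped as well.

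HLA-F, a heavy chain that can reach the cell surface without peptide, was near the limit of detection in MOLM-13 cells. It was at 0.0112, 0.0308 and 0.00631 FPKM in control and at 0.0184, 0.0372 and 0 FPKM with JOA. Adjusted for relative depth, these values lay within 0.104 of 2, 5, 1, 3, 6 and 0 multiples of the smallest one, so a few fragments stand behind each. HLA-F did not pass the filter, and in a fit that kept every gene detected in any library its log2 fold change was 0.02 (SE 0.14, limma adjusted p = 1.00).

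The same question was put to THP-1 cells, where the values of 6 genes were lower with JOA in each of the 3 pairs of same-numbered libraries. These were HLA-B, HLA-C, HLA-F, B2M, TAP1 and TAP2. Such a pattern was found in 19.4% of the 12712 genes tested. TAPBP and NLRC5 were higher in each pair, as were 29.3% of all genes. None of the 9 genes was called by limma, beside 0.134% of all genes, and 4 of 9 (HLA-B, HLA-F, TAP1 and TAPBP) had an unadjusted p under 0.05, beside 16.9%, or 2146, of all genes. With the replicate number as a block, which the check of pairing allows within a line, 3 genes had an adjusted p under 0.05, all lower with JOA: HLA-B, HLA-C and TAP1. Of all genes tested, 2.69% were lower at that threshold and 5.37% higher. The methods name no pairing, and the block was taken from correlations between these same libraries. Reading the block at the adjusted p alone was chosen after seeing the data. These block results also rest on the filter and on the mean-variance trend of limma. With the block and every gene detected in any library, the adjusted p was 0.0675 for HLA-B, 0.0824 for HLA-C and 0.0860 for TAP1, and with the block but no trend it was 0.114, 0.126 and 0.126. In either of these fits 0 of all genes passed, so no gene given as lower or higher with the block in THP-1 cells passed there. Their changes stayed under the fold threshold of 0.58, so that 0 of 9 were called with the block too. The median log2 fold change was -0.15 over the 9 genes and 0.02 over all genes.

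HLA-B was at 189, 244 and 233 FPKM in the THP-1 control libraries and at 135, 189 and 181 FPKM with JOA. The first library was the lowest in both groups, and the highest JOA value was just above the lowest control value, while within pairs JOA gave 0.713, 0.776 and 0.777 of control. The log2 fold change was -0.41 (SE 0.14, limma adjusted p = 0.212), and with the block the SE was 0.04 and the adjusted p = 0.00714. HLA-C was at 59.5, 77.3 and 76.5 FPKM in control and at 44.9, 62.7 and 66.5 FPKM with JOA. Again the groups overlapped through the first control library, and JOA gave 0.756, 0.811 and 0.870 of control within pairs. Its log2 fold change was -0.30 (SE 0.16, limma adjusted p = 0.381), and with the block the adjusted p = 0.0178.

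HLA-E, in contrast to HLA-B and HLA-C, was not lower. Its values were 27.8, 32.1 and 31.4 FPKM in THP-1 control libraries and 29.6, 31.4 and 34.9 FPKM with JOA. They overlapped, with a log2 fold change of 0.07 (SE 0.08, limma adjusted p = 0.704). HLA-F was at 0.296, 0.512 and 0.503 FPKM in control and at 0.164, 0.247 and 0.275 FPKM with JOA. It was the 1 gene of the 9 whose JOA values all lay below its control values, beside 8.81% of all genes, and 0 of 9 lay all above, beside 14.6%. Its log2 fold change of -0.69 (SE 0.23) had a limma adjusted p = 0.199 and, with the block, 0.0502. With a pseudocount of 1 it was -0.22, and with 0.01 it was -0.89. HLA-F stayed under 1 FPKM in all 12 libraries, and the pseudocount of 0.1 makes its log2 fold change smaller in size than its ratio within pairs, which was 0.555, 0.482 and 0.548. The study, which used DESeq, names HLA-F among the genes whose expression JOA altered in THP-1 cells. That test was not run here.

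B2M, the light chain shared by all class I molecules, was at 819, 987 and 982 FPKM in THP-1 control libraries and at 714, 919.7 and 909.5 FPKM with JOA. The groups overlapped, each pair was lower at 0.871, 0.932 and 0.927 of control, and the log2 fold change was -0.14 (SE 0.12, limma adjusted p = 0.605). It was -0.23 without the first control library and -0.02 without the first JOA library. The first library was the lowest of its group, in both control and JOA, for B2M, HLA-B, HLA-C, HLA-E, HLA-F, TAP2 and TAPBP. By its construction, the block takes such a shared offset out of the spread.

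**Figure D2:**
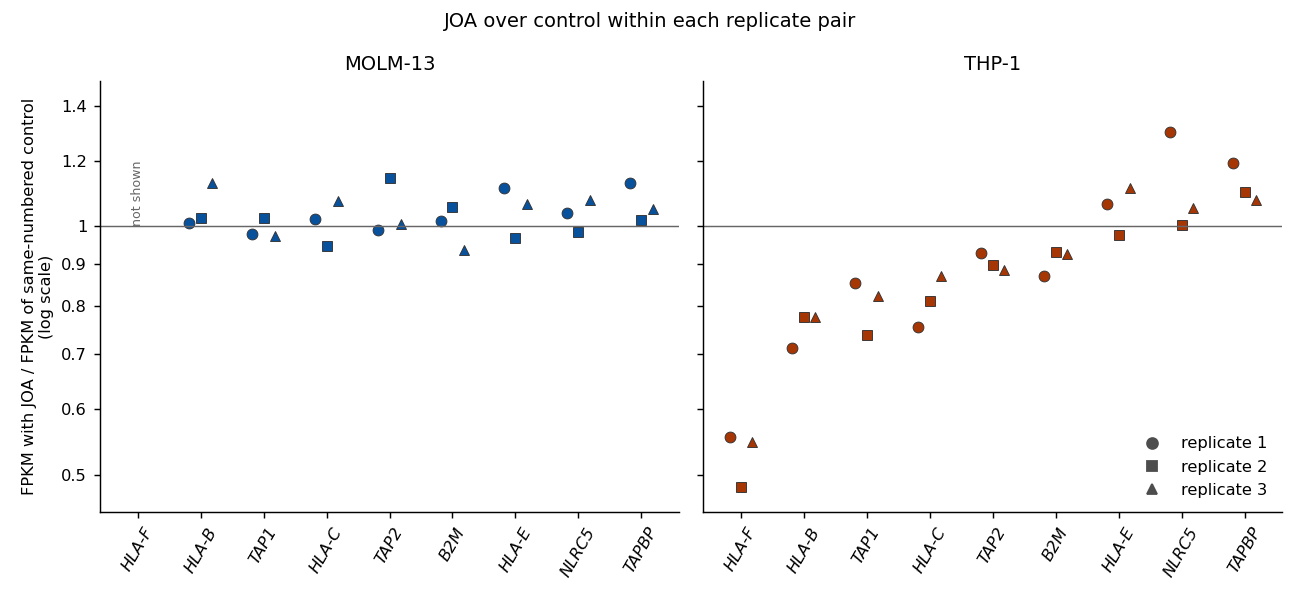
Ratio of the FPKM with JOA to the FPKM of the same-numbered control library (y axis, log scale, line at 1) for each gene (x axis), in MOLM-13 (left) and THP-1 cells (right), with 1 point per pair. HLA-F is not drawn for MOLM-13 cells, where it is near 0. In THP-1 cells the 3 points of HLA-F, HLA-B, TAP1, HLA-C, TAP2 and B2M are all below 1 and those of TAPBP and NLRC5 all above it.

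Of the peptide loading genes in THP-1 cells, TAP1 was at 13.7, 17.1 and 12.5 FPKM in control and at 11.7, 12.6 and 10.3 FPKM with JOA. The groups overlapped at the edge, and JOA gave 0.853, 0.738 and 0.824 of control within pairs. The log2 fold change was -0.31 (SE 0.12, limma adjusted p = 0.252), and with the block the adjusted p = 0.0227. TAP2, the partner subunit of TAP1, was at 19.0, 22.3 and 20.2 FPKM in control and at 17.6, 19.997 and 17.9 FPKM with JOA. Its groups overlapped, with a log2 fold change of -0.15 (SE 0.08, limma adjusted p = 0.381). TAPBP was at 48.7, 54.6 and 58.4 FPKM in control and at 58.1, 60.006 and 62.9 FPKM with JOA. The highest control value was just above the lowest JOA value, and the log2 fold change was 0.17 (SE 0.07, limma adjusted p = 0.292). NLRC5, the transactivator, was at 3.55, 4.27 and 3.78 FPKM in control and at 4.62, 4.28 and 3.97 FPKM with JOA. It was thus not lower, with overlapping groups and a log2 fold change of 0.15 (SE 0.09, limma adjusted p = 0.470).

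**Figure D3:**
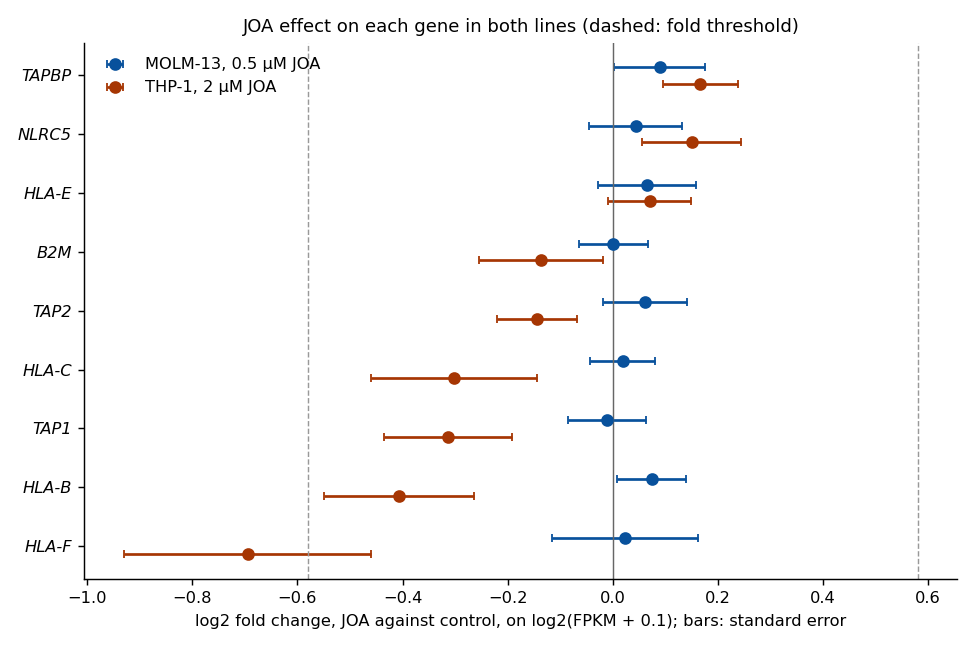
Log2 fold change of JOA against control (x axis, on log2(FPKM + 0.1), bars are standard errors from limma on 3 against 3 libraries) for each gene (y axis) in MOLM-13 (blue) and THP-1 cells (brown), with dashed lines at the fold threshold of 0.58. HLA-F in MOLM-13 cells comes from the fit that kept every gene detected in any library. The MOLM-13 points lie between -0.01 and 0.09 and the THP-1 points between -0.69 and 0.17.

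Whether JOA acted differently on these genes in both lines was tested as an interaction over all 12 libraries. The HLA-B difference was -0.48 on the log2 scale (SE 0.17, limma adjusted p = 0.578), being lower with JOA in 3 of 3 THP-1 pairs and higher in 3 of 3 MOLM-13 pairs. The THP-1 pattern was found in 19.4% of genes tested, and the shares for MOLM-13 or for both were not counted. The HLA-F difference was -0.72 (SE 0.31, adjusted p = 0.660), that of HLA-C -0.32 (SE 0.19, adjusted p = 0.773) and that of TAP1 -0.30 (SE 0.15, adjusted p = 0.727). HLA-F passed the filter here only through its THP-1 values. Its MOLM-13 values lie below the pseudocount of 0.1, so its difference largely repeats its THP-1 change. None of the 9 genes passed an adjusted p under 0.05, nor did any of the 12626 genes tested (0%). An unadjusted p under 0.05 was found for 2 of the 9 (HLA-B and HLA-F) and for 914 of all genes. With a replicate block, the HLA-B difference had an adjusted p = 0.0659 and 6 of all genes passed.

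Ratios between genes of 1 library do not depend on how libraries are scaled to each other. In THP-1 cells B2M was 4.05 to 4.34 times HLA-B in the control libraries and 4.86 to 5.31 times HLA-B with JOA. TAPBP was 0.224 to 0.258 of HLA-B in control and 0.317 to 0.432 with JOA, and HLA-B was 6.79 to 7.59 times HLA-E in control and 4.54 to 6.03 times with JOA. HLA-B was 3.04 to 3.17 times HLA-C in THP-1 control libraries and 2.72 to 3.02 times with JOA. These 4 ratios all hold HLA-B, so they are not separate findings. None overlapped between control and JOA in THP-1 cells, where 40.7% of all genes had a ratio to HLA-B that was higher in every JOA library, and all 4 overlapped in MOLM-13 cells. With 3 against 3 libraries an exact two-sided permutation test cannot go below p = 0.1, so no test is given for the ratios, which were chosen with results of these data known.

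**Figure D4:**
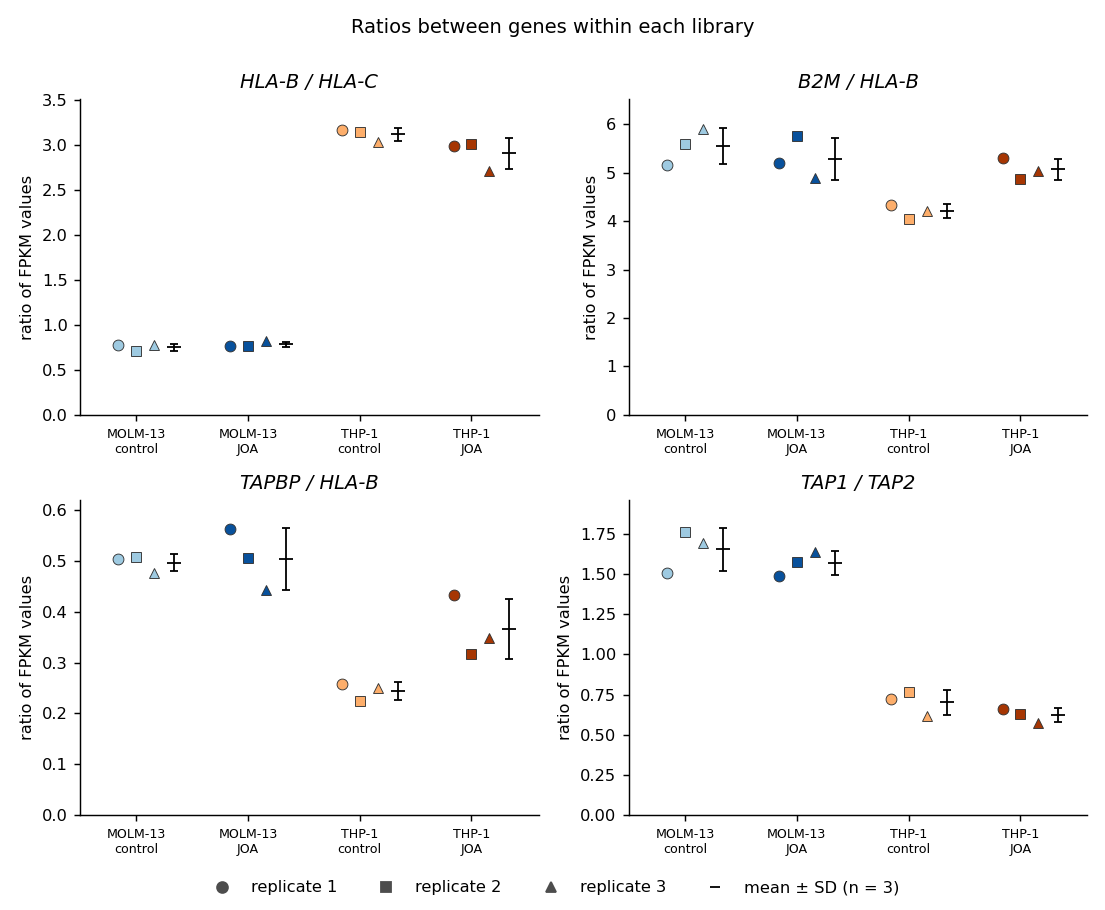
Ratio of the FPKM values of 2 genes of the same library (y axis, from 0) in the 4 groups (x axis), with 1 point per library and the mean ± SD of 3 libraries. B2M / HLA-B and TAPBP / HLA-B are higher with JOA in all THP-1 libraries, and HLA-B / HLA-C and TAP1 / TAP2 separate the lines.

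Between the untreated lines, of the 9 genes, 6 were called between THP-1 control and MOLM-13 control libraries, beside 44% of the 12635 genes tested. HLA-B was higher in THP-1 cells by a log2 fold change of 1.42 (SE 0.10, limma adjusted p = 4.35e-06), B2M by 1.03 (SE 0.09, adjusted p = 1.98e-05) and TAP2 by 1.54 (SE 0.08, adjusted p = 7.97e-07). HLA-F was higher by 2.19 (SE 0.22, adjusted p = 4.45e-05), against MOLM-13 values near 0. HLA-F passed the filter here only through its THP-1 libraries, so its call rests on those values and on the pseudocount. HLA-C and HLA-E were lower in THP-1 cells, by log2 fold changes of -0.62 (SE 0.10, adjusted p = 0.000764) and -1.01 (SE 0.10, adjusted p = 3.27e-05). The 3 control libraries of 1 line did not overlap those of the other for any of these 6 genes, nor for TAP1 and TAPBP. The share of all genes without overlap was not counted, so this describes the values only.

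TAP1 (0.32, SE 0.11, adjusted p = 0.0331) and TAPBP (0.40, SE 0.08, adjusted p = 0.00218) were higher in THP-1 control cells by less than the fold threshold. NLRC5 was at a like level in both lines, with overlapping libraries and a log2 fold change of -0.12 (SE 0.10, limma adjusted p = 0.336). The ratio of HLA-B to HLA-C was 0.711 to 0.781 in MOLM-13 control libraries, where HLA-C led, and above 3 in THP-1 control libraries. TAP1 was 1.504 to 1.76 times TAP2 in MOLM-13 control libraries and 0.616 to 0.767 times in THP-1 control libraries. Between the JOA libraries of the lines, HLA-B differed by 0.95 (SE 0.12) and HLA-C by -0.94 (SE 0.13), and the log2 fold change of TAP1 was 0.01 (SE 0.09, limma adjusted p = 0.897). The part of the lines' own HLA alleles in these levels was not tested.

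Around the 9 genes, the other lists of the pathway had few calls with JOA. In MOLM-13 cells 0 genes of these lists were called, and those with the smallest p were the class I-like genes FCGRT, the neonatal Fc receptor (log2 fold change 0.36), and CD1D, which presents lipids (0.31), with limma adjusted p-values above 0.05. In THP-1 cells 0 of 5 genes of the immunoproteasome and its activator were called, and 3 were lower at an adjusted p under 0.05 with the block, beside 2.69% of all genes. PSMB9, an immunoproteasome catalytic subunit, had means of 26.3 FPKM in control and 18.4 FPKM with JOA, a log2 fold change of -0.54 (limma adjusted p = 0.242, and 0.00950 with the block). PSMB9 and TAP1 are transcribed in opposite directions from start sites 488 bp apart, and both were lower, without a call. A link between the changes was not tested. The annotated span of PSMB9 covers that of TAP1, and how the counting step treated this overlap is not given in the sources used here. PSMB8 (-0.18, limma adjusted p = 0.240, and 0.0328 with the block) and PSME2 (-0.22, adjusted p = 0.252, and 0.0433 with the block) were lower too, the latter named after its values were seen. PSMB10, the third immunoproteasome subunit, was higher without a call, with a log2 fold change of 0.15. Its limma adjusted p was 0.2003, and 0.0867 with the block. Without the block, it had the smallest limma p of the 5 genes. All its JOA values lay above its control values, while those of PSMB8 all lay below. Of all genes tested in THP-1 cells, 14.6% lay all above and 8.81% all below.

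The 3 constitutive catalytic subunits PSMB5, PSMB6 and PSMB7, whose places the immunoproteasome subunits take, had log2 fold changes of 0.00 to 0.04 in THP-1 cells and none was called. Of 7 loading chaperones and peptide trimming genes 0 were called, and ERAP1, which trims peptides in the endoplasmic reticulum, was higher with the block (log2 fold change 0.26, limma adjusted p = 0.0755, and 0.0248 with the block). PDIA3, a disulfide isomerase of the loading complex, had a log2 fold change of 0.17. Of 15 transcription factors that act at class I promoters 0 were called, with a median of -0.09. NFYA, a subunit of NF-Y, had a log2 fold change of -0.18 and STAT2, of the type I interferon response, 0.33, with limma adjusted p-values of 0.175 and 0.184. Of 4 genes for the interferon gamma receptor and its kinases 0 were called, and their log2 fold changes lay between 0.01 and 0.16.

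Among 6 class I-like and stress ligand genes 0 were called in THP-1 cells and 2 were higher with the block, MICB (0.22, limma adjusted p = 0.209, and 0.0432 with the block), a ligand of NKG2D, and CD1D (0.57, SE 0.47, adjusted p = 0.584, and 0.0203 with the block), the latter named after its values were seen. Among 7 genes of class I surface turnover and repression 0 were called, and SPPL2A, an intramembrane protease, was higher with the block (0.30, limma adjusted p = 0.132, and 0.0170 with the block). For comparison, of the 11 MHC class II genes tested with CIITA and CD74, 11 had negative log2 fold changes with JOA in THP-1 cells (median -0.55), and 2 were called lower, HLA-DRA (-0.78) and HLA-DPA1 (-0.93). Some of those class II genes were named by the study on these samples, so that list is not independent evidence.

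**Figure D5:**
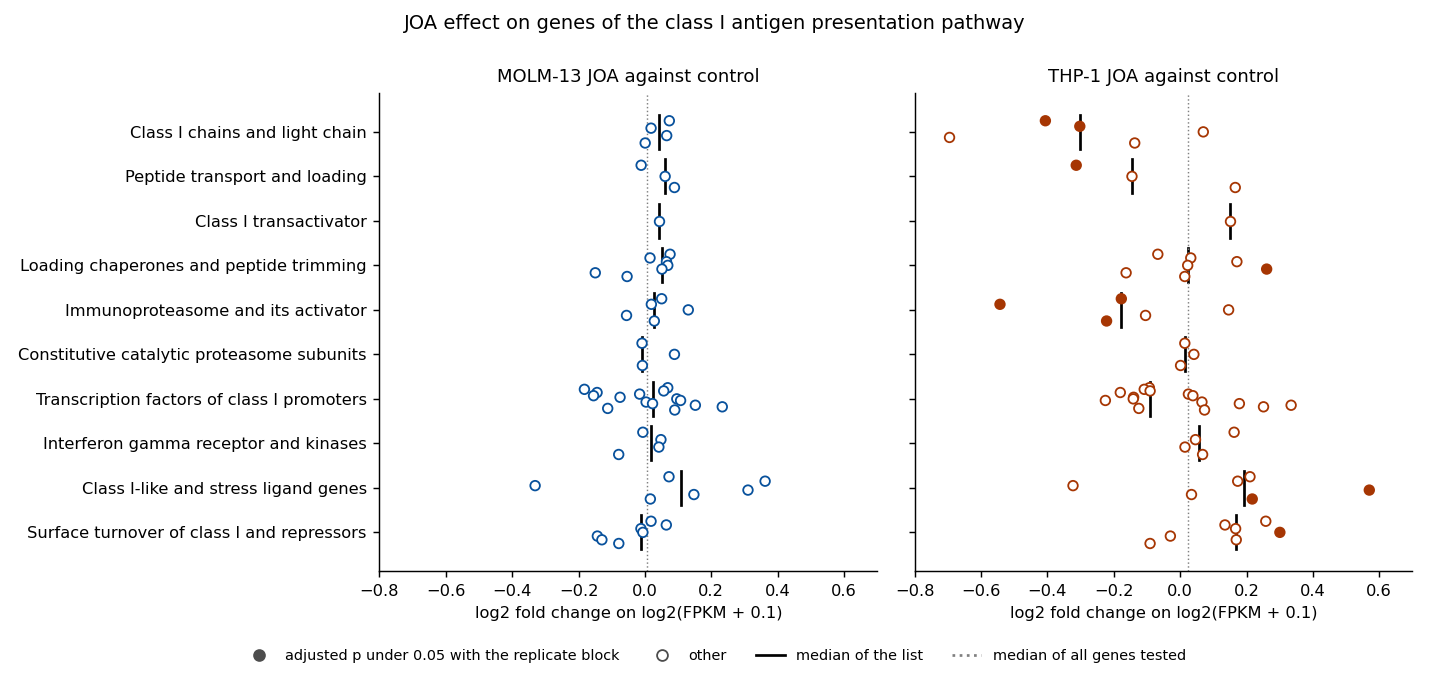
Log2 fold change of JOA against control (x axis, on log2(FPKM + 0.1)) of each tested gene in 10 lists of the class I pathway (y axis), in MOLM-13 (left) and THP-1 cells (right). Filled points have an adjusted p under 0.05 with the replicate block, black bars are list medians and the dotted line is the median of all genes. In MOLM-13 cells no point is filled, and in THP-1 cells the filled points below 0 are HLA-B, HLA-C, TAP1, PSMB9, PSMB8 and PSME2.

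Between the untreated lines, ERAP2, which trims peptides beside ERAP1, was called lower in THP-1 control cells, by a log2 fold change of -3.36, and UGGT1, CALR and PDIA3 were called higher (1.11, 0.89 and 0.77). PSMB9 was called higher at 1.53, the 1 call among the 5 immunoproteasome genes, and NFYC (2.97), RFX5 (0.83) and NFYA (0.64) were called higher and RFXAP (-1.12) lower among the 15 factors. FCGRT (0.70) and SUZ12 (0.70), a subunit of a repressive chromatin complex, were called higher in their lists. Of all 12635 genes tested, 44% were called in this comparison, so such calls were common and do not mark out these lists.

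Over the 12 libraries, each centred on the mean of its line, the genes most like the mean of 8 of the 9 genes included NDUFV1 (Pearson r = 0.893), AGO1 (0.884), PLEKHO1 (0.870) and GATM (0.867), among 9232 genes ranked. The 12 points share their libraries and scaling, and no p is given.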

How the data were processed

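Paired-end mRNA-seq of 12 libraries was deposited by the authors as 1 table of FPKM values per gene. Their processing notes name Trimmomatic, HISAT2, Cufflinks, HTSeq and hg38, without versions or roles, and the library kit was stranded. Groups, doses and replicate numbers came from the sample records. FPKM is scaled to length and to the mapped fragments of a library, so a change in very abundant genes shifts all others.

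Values were used as deposited. In each comparison, genes whose mean FPKM reached 0.1 were kept, and log2(FPKM + 0.1) was compared with limma 3.58.1 in R 4.3.3 (lmFit, eBayes with trend), with Benjamini-Hochberg adjustment over all genes. Calls needed an adjusted p below 0.05 together with a log2 fold change of 0.58 or more in size. The interaction was called on the adjusted p alone. The procedure was tested on simulated data. DESeq, used by the authors, needs counts and was not run. With it, at the same thresholds, the authors reported more changed genes in both lines than were called here. A lack of calls here is thus not evidence of a lack of effect.

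Within a line, same-numbered control and JOA libraries deviated together (correlations of 0.264 to 0.398 in MOLM-13 and 0.139 to 0.319 in THP-1 cells, different numbers at most 0.0168), so the numbers were taken to pair them. The methods name no such pairing.

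The 9 genes, the lists and the motifs were chosen with earlier results of these data known. All 9 genes are named throughout. Of each other list, at most the 3 genes with the smallest p per comparison and any called gene are named, with exceptions stated. Some genes that these rules name are not reported here. Alternatives covered the pseudocount, filter, scaling, eBayes trend, replicate block, samples in the fit, threshold and leaving out each library. Sequences came from RefSeq and GENCODE tables, and Python 3.11.15 was used for them.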

Additional observations from a re-analysis of the deposited data

Results flagged for a closer look

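HLA-B was flagged because all 3 THP-1 pairs had less HLA-B mRNA with JOA than with control and all 3 MOLM-13 pairs had more. The THP-1 pattern alone held for 19.4% of all genes tested. The share with the MOLM-13 pattern, or with both, was not counted, so how unusual HLA-B is cannot be said. The MOLM-13 ratios were 1.01, 1.02 and 1.13, with overlapping groups, and TAPBP was also higher in all 3 MOLM-13 pairs. The difference of the log2 fold changes, THP-1 minus MOLM-13, was -0.48. The difference was tested by the interaction in limma, with an adjusted p = 0.578 without the replicate block and 0.0659 with it, and it did not pass the threshold in either fit. JOA was given at 2 μM to THP-1 cells and at 0.5 μM to MOLM-13 cells, so line and dose cannot be told apart.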

How the results depend on the processing

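Among the 9 genes, 0 were called with JOA in MOLM-13 cells under all alternatives run and with each library left out. In THP-1 cells the count was 0 in the main fit, 1 (HLA-F) when the p was not adjusted and the fold threshold kept, and 3 with the replicate block and the adjusted p alone, a choice added after seeing the data. That block count was 4, with TAPBP as the added gene, at a mean FPKM of at least 1, and 0 when every gene detected in any library was kept or the eBayes trend was left out, where 0 of all genes passed. The interaction gave 0, or 2 (HLA-B and HLA-F) at an unadjusted p under 0.05, and the untreated lines gave 5 to 6. HLA-F passed the main filter in both only through its THP-1 values. Leaving out a library gave log2 fold changes with JOA in THP-1 cells of -0.52 to -0.25 for HLA-B, -0.43 to -0.13 for HLA-C, -0.90 to -0.54 for HLA-F, -0.41 to -0.19 for TAP1 and -0.23 to -0.02 for B2M. HLA-C between the lines lost its call when rescaled to TPM (-0.54) and without the first THP-1 control library (-0.50), and HLA-F with a pseudocount of 1 (0.50), in each case under the fold threshold.

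Signs turned for values near 0. In MOLM-13 cells the log2 fold change of B2M was -0.0109 rescaled to TPM and -0.0119 rescaled to the same median, and the interaction of HLA-E was -0.0181 rescaled to the same median. With each library left out, MOLM-13 values ran from -0.0192 to 0.0463 for HLA-C, -0.0277 to 0.147 for HLA-E, -0.0206 to 0.0339 for B2M, -0.0705 to 0.0253 for TAP1 and -0.0272 to 0.0837 for NLRC5, and the interaction of HLA-E from -0.0775 to 0.0975. The causes were not tested. Across lines, same-numbered libraries deviated together only weakly. For control libraries the correlations were 0.0698 to 0.131, beside -0.0794 to 0.0152 for different numbers. For JOA libraries they were 0.0284 to 0.110, beside -0.0676 to 0.0363, and these ranges overlap. The block on the untreated lines thus rests on a shared number and this weak correlation. The block changed no call at both thresholds among the 9 genes. Depth limits HLA-F, which is near 0 in MOLM-13 cells.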
